A study of Mus musculus with 9 samples.

Results

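Histones are the proteins that package DNA, and the 88 genes described here are those of the deposited table of 46078 genes whose symbols mark them as histones. The rule took symbols that begin with Hist and a cluster number from 1 to 4, which gave 70 replication-dependent genes, and symbols that begin with H2af, H3f3 or H1f, which gave 18 replacement variants. Rows whose symbol contains -ps, the mark of a pseudogene, were left out, and 4 rows were removed in this way. The rule acts on names alone and used no measured value. It takes in H3f3aos, an RNA antisense to H3f3a, and a few rows that the GENCODE annotation lists as pseudogenes, among them H3f3c and H2afy3. The symbol Hist2h2bb stands on 2 rows, of which GENCODE lists one as the lincRNA Gm42743 and the other as the coding gene.

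The values come from sequencing of transcript 3′ ends in 9 mouse libraries of the C57BL/6J strain. In 6 of them, called lymphoma here, the RNA was from T cell lymphoma cells of the thymus induced by MYCN, a transcription factor of the MYC family. The 3 others, called CD4, came from CD4+ T cells of the spleen and served as controls. The lymphomas carry the numbers 34, 53, 56, 70, 72 and 86 and the controls 1, 2 and 3. The labels give no age, no sex, no promoter for the driver and no word on whether the tumours or the control preparations were independent, so p-values measure the spread between these samples, which may in part be technical. Over 15401 genes, log2 values of lymphomas 70 and 72 correlated most (r = 0.986), and those of lymphoma 53 with the others least (r = 0.903 to 0.918), where the other pairs lay at 0.954 to 0.97. Lymphomas 34, 70 and 72 shared their most counted T cell receptor segment, Trbv12-1 (66 of 84, 45 of 73 and 47 of 87 Trbv counts). Averaged into 1 library, they left 17 of the 20 replication-dependent rises and 5 of the 6 replacement variant rises reported below. Whether these tumours share an origin was not tested. Tissue of origin and group coincide and cannot be told apart.

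Each nucleosome holds a pair each of H2A, H2B, H3 and H4, and linker histone H1 binds where the DNA enters and leaves. Replication-dependent genes supply histones during S phase. They lie in clusters, lack introns as a rule, and their mRNAs are usually not polyadenylated but end just past a short stem-loop bound by the stem-loop binding protein SLBP. Replacement variants, such as H2A.Z, H3.3 and H1.0, are as a rule made through the cell cycle from polyadenylated mRNAs, and H2A.X mRNA is known in both a stem-loop and a polyadenylated form. Libraries of transcript 3′ ends favour polyadenylated RNA, so the replication-dependent counts reflect the transcripts of these genes that the method captured and not the stem-loop pool as a whole. Fewer cells of a type and less RNA per cell cannot be told apart in such bulk samples.

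The stem-loop can be read from the annotated transcripts, and a few are shown because they set the classes apart and mark the members that the results turn on. The search took 16 bases of the form GGNNNTTTNNNNNNCC whose outer bases form 6 pairs, with G-T allowed, within the first 100 bases after the stop codon of GENCODE M21 transcripts (build GRCm38), on the transcript strand only. Each line gives a site of 26 bases, 5′ to 3′, with the stem-loop in capitals.
Hist1h2ao: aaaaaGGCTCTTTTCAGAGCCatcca
Hist1h1c: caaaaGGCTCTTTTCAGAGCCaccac
Hist1h1e: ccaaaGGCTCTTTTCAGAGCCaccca
Hist1h4i: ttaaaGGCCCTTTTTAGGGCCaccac
Hist2h4: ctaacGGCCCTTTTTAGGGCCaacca
Hist1h2bk: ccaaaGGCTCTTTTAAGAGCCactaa
H2afx: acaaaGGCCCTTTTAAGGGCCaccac
A stem-loop was found in 41 of the 50 replication-dependent members whose annotated transcript runs far enough to be searched. It was found in 1 of 13 replacement variants, H2afx. Over all genes annotated through the full window it was found in 28 of 20213, or 0.139%. Those 28 include the members themselves: 24 of the 30 replication-dependent members and 1 of the 12 replacement variants with the full window. The form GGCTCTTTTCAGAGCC was the most common, with 23 members, and the 4 H4 genes Hist1h4i, Hist2h4, Hist1h4b and Hist1h4j carried rarer forms. The transcript of Hist1h2ao ends 31 annotated bases past its stem-loop, while those of Hist1h1c and Hist2h4 run on for 840 and 1257 bases. The polyadenylation signal AATAAA lay within the last 50 bases of the longest annotated transcript of 12 replication-dependent members and 7 replacement variants.

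Next, 2 promoters are shown from RefSeq (build GRCm38.p6, 250 bases before to 50 after the annotated start), since one belongs to a replacement variant that rose and the other covers most of the gap between the 2 genes of a divergent pair of which 1 rose, and reaches into the annotated end of the partner gene. The first is H2afz, chr3:137864237-137864536, plus strand, with CACGTG in capitals, the E-box that MYC family proteins are known to bind. The second is Hist1h2ao, chr13:21810117-21810416, plus strand, with CCAAT or its reverse complement in capitals. H2afz was the only matched member with CACGTG, and its stretch also holds CCAAT and the reverse complement, left in lower case.
H2afz: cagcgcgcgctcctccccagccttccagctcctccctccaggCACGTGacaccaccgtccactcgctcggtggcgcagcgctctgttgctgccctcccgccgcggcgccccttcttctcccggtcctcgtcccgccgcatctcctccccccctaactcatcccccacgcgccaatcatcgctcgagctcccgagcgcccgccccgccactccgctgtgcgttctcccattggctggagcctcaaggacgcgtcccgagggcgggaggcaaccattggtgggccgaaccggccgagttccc
Hist1h2ao: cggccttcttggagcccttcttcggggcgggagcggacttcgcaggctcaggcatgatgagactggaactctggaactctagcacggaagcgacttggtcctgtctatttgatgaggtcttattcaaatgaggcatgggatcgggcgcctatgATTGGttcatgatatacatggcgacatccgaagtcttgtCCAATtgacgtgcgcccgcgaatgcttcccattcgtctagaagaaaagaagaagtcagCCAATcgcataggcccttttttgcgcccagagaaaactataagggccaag
Of the 88 members, 76 matched a RefSeq promoter of this length, 62 of them replication-dependent and 14 replacement variants, with the promoter of Hist2h2bb counted for both of its rows. On either strand, CCAAT stood in 85.5% of the replication-dependent promoters, in 64.3% of those of replacement variants and in 37.9% of all 27025 promoters. TATAAA stood in 56.5%, 7.14% and 14.2% in the same order, and ATTTGCAT, the octamer bound by OCT factors, in 22.6%, 7.14% and 1.75%. CACGTG was in 7.24% of all promoters, in 0 of 62 replication-dependent promoters and in 1 of 14 of the replacement variants, that of H2afz. A match is a run of letters in this window and was not measured as a binding site.

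Reads counted in genes ranged from 8099960 to 15769679 per library. At this depth a count of 0 allowed up to 0.184 to 0.360 counts per 1000000 of the scaled library (CPM). Reads that aligned to several places, which are in no gene's count, made up 16.1% to 18.6% of reads in lymphoma and 11.6% to 13.99% in CD4. Many histone genes are known to have near-identical copies, which makes their counts uncertain, and the share of such reads moved with the groups. Its part in the results was not tested. Strand use in counting is not given in the sources used here. On the opposite strand, 24 replication-dependent members and 9 replacement variants overlap a gene, from which their reads may not be separable. Hist1h2ao, H2afx, H1f0, H2afy, H2afj, H1fx and H3f3a, whose values are given below, are among them. On the same strand, 8 replication-dependent members and 1 replacement variant, H1fx, overlap another gene, a limit under any strand setting. Hist1h1e, Hist3h2a and Hist1h2ac are among those 8. The 14 T cell markers all had counts in CD4, and 1, Cd8b1, was at 0 in at least 1 lymphoma. They had summed levels of 3615 to 8329 CPM in lymphoma and 5625 to 5916 CPM in CD4. Cd4 itself was lower in lymphoma (log2 fold change -2.76, edgeR adjusted p 0.0111). Cd8a and Cd8b1 were counted in every CD4 library, at 25.6 to 31.8 and 35.9 to 44.9 CPM. In lymphoma 53 they had 29.4 and 47.6 CPM, and in the other lymphomas at most 1.53 and 0.735 CPM. Neither was called (edgeR adjusted p 0.207 and 0.324). All 15 B cell markers were lower in lymphoma, where 4 of them were at 0 in at least 1 library and none in all 6. They summed to 3958 to 5293 CPM in CD4 and to 341.9 to 592.0 CPM in lymphoma. Of 12 myeloid markers 4 were lower and 0 higher, of 9 tested erythroid markers 2 were higher and 0 lower, and of 7 tested stromal and thymic epithelial markers 2 were higher and 1 lower. DESeq2 gave the same counts of 0. Over all tested genes, edgeR called 24.7% higher and 21.9% lower. The part of RNA from other cells in the differences below was not tested.

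Both classes of histone gene leaned towards lymphoma. Of the 18 replacement variants, 6 had no count in any library and 10 passed the filter on low counts (at least 0.694 CPM in 3 libraries). Of those 10, 6 rose in lymphoma and 0 fell by edgeR's quasi-likelihood test with a Benjamini-Hochberg adjusted p under 0.05. At an unadjusted p under 0.05 the count of falls was also 0, as it was with DESeq2, while limma voom called 1, H3f3a. Of the 70 replication-dependent members, 6 had no count in any library, 54 passed the filter, 20 rose and 2 fell. Over all 15401 tested genes, 24.7% were called higher, 21.9% lower and 46.6% either way. The median log2 fold change was 1.47 over the tested replacement variants and 1.09 over the tested replication-dependent members, against 0.04 over all tested genes. These counts and medians are descriptions only, since a member that is low in CD4 passes the filter through its level in lymphoma. Only 22 of the 54 replication-dependent members had all 3 CD4 libraries over that minimum. Among those 22, 6 rose and 2 fell, with a median of 0.41. Of 8 replacement variants over the minimum in the same way, 5 rose, with a median of 1.02. Over all 12737 such genes, 24.5% were higher and 26.3% lower, with a median of -0.07, so the count of rises among these replication-dependent members is near the background.

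Among the replacement variants of H2A, 4 of the 5 tested members rose (80.0%, against 24.7% over all tested genes). H2afy did not pass the test. H2afx (ENSMUSG00000049932, a single exon at chr9:44334694-44336077, plus strand, in GRCm38 as are all positions below) encodes H2A.X, which is phosphorylated around DNA breaks. It ranged from 194 CPM through a median of 209 to 328 CPM in lymphoma, and had 37.5, 29.3 and 36.6 CPM in CD4 1, 2 and 3. Every lymphoma lay far above every control. The fitted log2 change was 2.74 (SE 0.224, edgeR adjusted p 2.57e-06), or 6.70-fold.

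H2afz (ENSMUSG00000037894, chr3:137864487-137866922, plus strand) encodes H2A.Z.1, a variant found at promoters of active and poised genes. It ranged from 99.6 through a median of 124 to 213 CPM in lymphoma, against 23.4, 33.1 and 43.3 CPM in CD4. The groups did not overlap, and the highest value was that of lymphoma 53. For H2afz the log2 fold change was 1.99 (SE 0.287, edgeR adjusted p 0.00016). Its close relative H2afv, which encodes H2A.Z.2, ranged from 194 through a median of 295 to 392 CPM in lymphoma and had 148, 119.9 and 99.9 CPM in CD4. Here too every lymphoma exceeded every control, by a smaller margin. On the log2 scale it rose by 1.24 (SE 0.245, edgeR adjusted p 0.00145). H2afj, which encodes a variant close to canonical H2A, ranged from 65.4 through 97.3 to 146 CPM in lymphoma against 42.1, 67.9 and 62.3 CPM in CD4. Lymphoma 72 fell inside the range of the controls. H2afj rose by 0.80 on the log2 scale (SE 0.254, edgeR adjusted p 0.0218), and the call was lost without CD4 1 (0.63, adjusted p 0.0856).

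H2afy encodes macroH2A1, a variant with a large globular domain known from repressed chromatin. It ranged from 343 through 424 to 539 CPM in lymphoma, and had 471, 416 and 389.9 CPM in CD4, all within the range of the lymphomas. Its log2 fold change was 0.01 with an approximate 95% interval of -0.31 to 0.33 (edgeR adjusted p 0.967). The sign was negative with the 3 other scalings, at most to -0.10. The other macroH2A gene, H2afy2, did not pass the filter, with a mean of 0.218 CPM in lymphoma and no count in CD4.

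**Figure D1:**
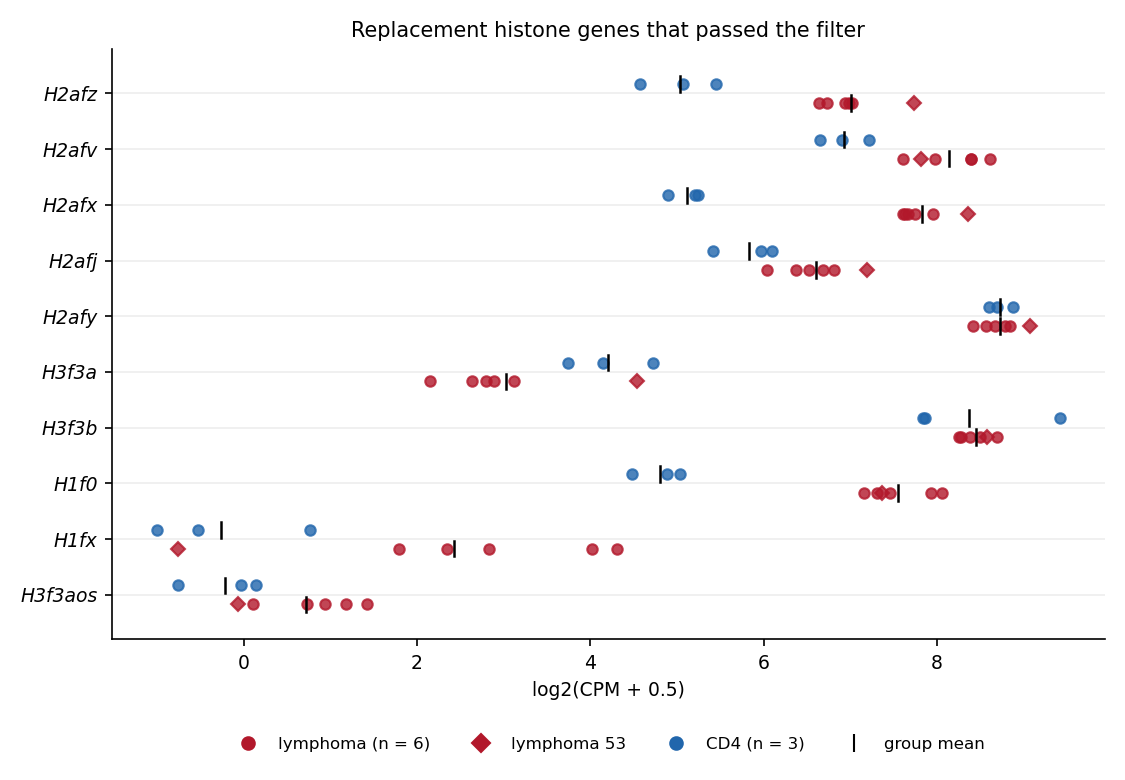
Replacement histone genes that passed the filter, 1 gene per row. The x axis is log2(CPM + 0.5), each point is a library (red, 6 lymphomas, with lymphoma 53 as a diamond, and blue, 3 CD4) and the black tick is the group mean on that scale. H2afx, H2afz, H2afv and H1f0 separate the groups, H3f3b does so but for CD4 3, and lymphoma 53 stands apart for H3f3a and H1fx.

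H3.3, the replacement form of H3 that marks active genes and other sites of histone exchange, is encoded by H3f3a and H3f3b, and neither passed the test. H3f3a ranged from 3.93 through 6.69 to 22.7 CPM in lymphoma, against 12.9, 17.2 and 25.9 CPM in CD4. Lymphoma 53 alone reached into the range of the controls, and the other 5 lymphomas had at most 8.21 CPM. The fitted log2 change was -1.06 (SE 0.484, edgeR adjusted p 0.094). Without lymphoma 53 it was -1.58 with an adjusted p of 0.00101, and limma voom gave -1.30 with an adjusted p of 0.0192 over all 9 libraries. The table also lists pseudogenes of H3f3a, and reads shared with them are not counted.

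H3f3b ranged from 306 through 348 to 414 CPM in lymphoma, and had 232, 229.6 and 684 CPM in CD4 1, 2 and 3. CD4 3 lay above all lymphomas and the other 2 controls below all of them. For H3f3b the log2 fold change was -0.12 with an approximate 95% interval of -0.72 to 0.48 (edgeR adjusted p 0.781). Without CD4 3 it was 0.62 with an adjusted p of 0.0216, so 1 control library decides the direction for H3f3b. The antisense RNA H3f3aos, which overlaps the H3f3a gene on the other strand, ranged from 0.457 to 2.18 CPM in lymphoma and had 0.477, 0.600 and 0.0917 CPM in CD4. The groups overlapped (log2 fold change 1.69, SE 0.876, edgeR adjusted p 0.135).

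Both tested replacement forms of the linker histone were called higher, as were 24.7% of all tested genes. H1f0 (ENSMUSG00000096210, a single exon at chr15:79028450-79030504, plus strand) encodes H1.0, best known from differentiated and resting cells. It ranged from 143 through 169.8 to 266 CPM in lymphoma, against 29.1, 21.8 and 32.2 CPM in CD4. No lymphoma came near the controls. The fitted log2 change was 2.79 (SE 0.263, edgeR adjusted p 7.71e-06), or 6.92-fold. H1fx, which encodes H1.10, was counted 244, 1, 63, 108, 294 and 41 times in the lymphomas, in the order 34, 53, 56, 70, 72 and 86, and 2, 0 and 13 times in CD4. The lymphomas spread widely and lymphoma 53 lay among the controls. Its log2 fold change was 4.07 (SE 1.41, edgeR adjusted p 0.0353), and the call was lost in 8 of 17 alternatives, among them leaving out lymphoma 34, lymphoma 72, CD4 1 or CD4 2 (adjusted p 0.0514 to 0.117). Without lymphoma 53 the log2 fold change of H1fx was 4.31 (adjusted p 0.00381), and without CD4 3 it was 6.20 (0.0323).

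Ratios of paralogous replacement variants within a library were compared, since at high counts they depend little on the library's scaling. At low counts they depend on the prior count of 2. This touches H1fx, with 1 count in lymphoma 53 and 2, 0 and 13 in CD4. In 4 pairs with both members tested, log2 ratios were averaged per group and compared by an exact two-sided permutation test over the 84 assignments of the libraries. The ratio of H3f3a to H3f3b was -5.50 ± 0.750 (SD, n = 6) in lymphoma and -4.20 ± 0.495 (SD, n = 3) in CD4, a difference of -1.30 (exact p = 0.0476, adjusted over the 4 pairs 0.0952). For H2afz to H2afx the means were -0.82 ± 0.155 and -0.09 ± 0.513, a difference of -0.74 (exact p = 0.0357, adjusted 0.0952). For H2afz to H2afv the difference was 0.77 (exact p = 0.167, adjusted 0.222), and for H1f0 to H1fx it was -0.64 (exact p = 0.679, adjusted 0.679). No pair passed 0.05 after adjustment.

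The replication-dependent genes are mostly clustered: 54 of the 70 lie on chromosome 13, 11 on chromosome 3, 2 on chromosome 11 and 1 on chromosome 6, and 2 were not matched to the annotation. Among the linker histones, 5 of the 6 genes were tested, and the sixth, the testis form Hist1h1t, had 3 counts in all. Of the 5, 4 rose (80.0%) and 1 fell, against 24.7% higher and 21.9% lower over all tested genes. Hist1h1b (ENSMUSG00000058773, a single exon at chr13:21779883-21780625, minus strand) encodes H1.5. It ranged from 47.4 through 54.9 to 63.2 CPM in lymphoma and had 7.44, 2.52 and 3.12 CPM in CD4, with a wide gap between the groups. On the log2 scale it rose by 3.64 (SE 0.341, edgeR adjusted p 7.37e-06), or 12.5-fold, and by 4.29 without CD4 1. Hist1h1a, which encodes H1.1, ranged from 7.71 through 8.46 to 8.97 CPM in lymphoma, against 1.62, 2.76 and 0.642 CPM in CD4. The lymphomas lay close together, all above the controls. Hist1h1a rose by 2.34 on the log2 scale (SE 0.456, edgeR adjusted p 0.00135).

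Hist1h1e, which encodes H1.4, ranged from 94.0 through 166 to 184 CPM in lymphoma, and had 48.2, 80.5 and 93.1 CPM in CD4. The lowest lymphoma, 53, lay just above the highest control, CD4 3. The fitted log2 change was 1.06 (SE 0.254, edgeR adjusted p 0.0049). Hist1h1c (ENSMUSG00000036181, a single exon at chr13:23738808-23740367, plus strand), which encodes H1.2, went the other way. It ranged from 32.2 through 42.6 to 70.7 CPM in lymphoma, against 63.6, 80.5 and 144 CPM in CD4. Lymphoma 53 lay above CD4 1, and the other 5 lymphomas, at up to 42.9 CPM, lay below all controls. The fitted log2 change was -1.10 (SE 0.277, edgeR adjusted p 0.00655), and without CD4 3 it was -0.68 (adjusted p 0.0689), which ends the call. Hist1h1d, which encodes H1.3 and is named to complete the family after its values were seen, rose by 0.96 on the log2 scale (SE 0.324, edgeR adjusted p 0.0296), a call that was lost without CD4 1 (adjusted p 0.0834) and without CD4 3 (0.104). In CPM, which is not scaled by transcript length, Hist1h1c held 27.4% of all replication-dependent CPM in CD4 and 6.98% in lymphoma, and Hist1h1b held 8.57% in lymphoma.

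**Figure D2:**
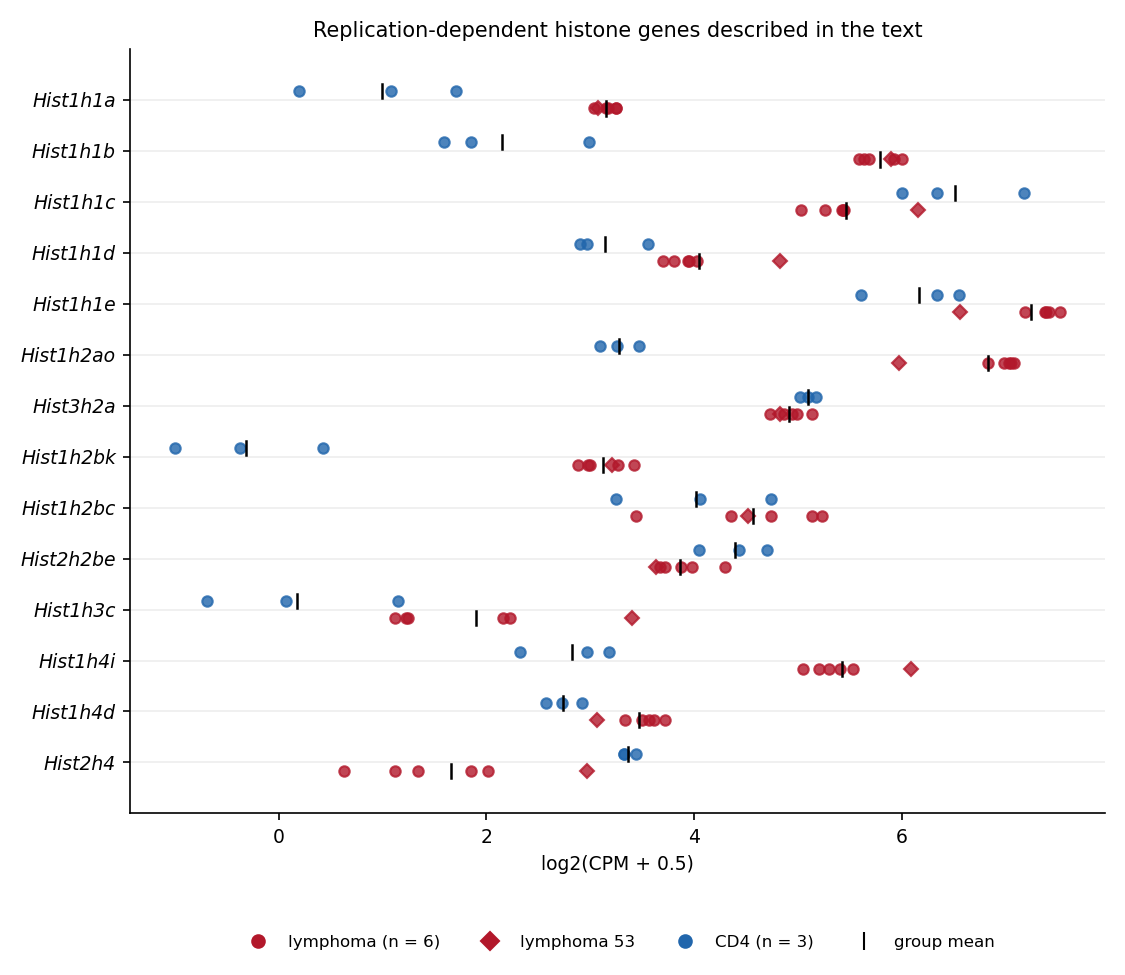
Replication-dependent histone genes with values in the text, 1 gene per row. The x axis is log2(CPM + 0.5), each point is a library (red, 6 lymphomas, with lymphoma 53 as a diamond, and blue, 3 CD4) and the black tick is the group mean on that scale. Hist1h1b, Hist1h2ao, Hist1h2bk and Hist1h4i lie higher in all lymphomas, Hist2h4 lies lower in all of them, and lymphoma 53 is the lymphoma nearest the controls for Hist1h1c, Hist1h1e, Hist1h2ao and Hist2h4.

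Among the core histones H2A and H2B, 10 of 27 tested members rose and 0 fell by edgeR. The falls numbered 0 with limma voom, 1 with DESeq2 and 1 at an unadjusted p under 0.05. Members low in CD4 passed the filter with the help of lymphoma libraries, which leaves them little room to fall. Of the 20 H2A genes, 11 were tested and 5 rose (45.5%, against 24.7% over all tested genes). Only 3 of the 11 had all 3 CD4 libraries over the filter's minimum, and 1 of those 3 rose. Hist1h2ao (ENSMUSG00000094248, a single exon at chr13:21810465-21810944, plus strand) ranged from 62.3 through 128 to 134 CPM in lymphoma and had 8.01, 10.6 and 9.08 CPM in CD4. All lymphomas stood far above the controls, lymphoma 53 being the lowest of them. For Hist1h2ao the log2 fold change was 3.66 (SE 0.284, edgeR adjusted p 1.79e-06), or 12.6-fold. Hist3h2a was named after its values were seen because it is well covered and level. It ranged from 26.0 through 29.4 to 34.5 CPM in lymphoma against 35.5, 31.9 and 33.7 CPM in CD4. The log2 fold change of Hist3h2a was -0.18 (approximate 95% interval -0.50 to 0.14, edgeR adjusted p 0.398).

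Several H2A and H2B members were barely detected in CD4. Hist1h2ap had 298 counts over the 6 lymphomas and 2 over the 3 controls, a ratio of 51.7 per library size (exact 95% interval 14.2 to 429). Hist1h2ag, named after its values were seen, had 101 and 1, a ratio of 35.0 (6.15 to 1400). Hist1h2ac, Hist1h2bp and Hist1h2bn had no count in CD4 and 61, 117 and 154 counts in lymphoma. Against a floor of 3 counts in each CD4 library they were at least 2.36-fold, 4.32-fold and 6.23-fold higher in lymphoma. These intervals and floors cover counting error only. All 5 were called by edgeR, with adjusted p from 0.00135 to 0.00827. The fitted log2 changes of Hist1h2ap and Hist1h2ag, 5.51 and 4.80, became 8.61 without CD4 2 and 6.98 without CD4 1, the libraries that hold their control counts.

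Of the 19 H2B rows, 16 were tested and 5 rose (31.2%, against 24.7% over all tested genes). Only 6 of the 16 had every CD4 library over the filter's minimum. Of those 6, 0 rose, and their median log2 fold change was 0.09. The tested Hist2h2bb row is the lincRNA Gm42743, which was not called, and the coding Hist2h2bb had no count. Hist1h2bk, named after its values were seen as the H2B rise with the most counts, ranged from 6.86 through 8.13 to 10.2 CPM in lymphoma and had 0, 0.840 and 0.275 CPM in CD4. Every lymphoma was above 6 CPM and every control under 1 CPM. On the log2 scale it rose by 4.51 (SE 0.740, edgeR adjusted p 0.000417), and by 5.81 without CD4 2. Hist1h2bc, the H2B gene with the highest mean CPM over the 9 libraries, ranged from 10.3 through 24.3 to 37.1 CPM in lymphoma and had 16.1, 8.999 and 26.1 CPM in CD4. The groups overlapped (log2 fold change 0.55, approximate 95% interval -0.25 to 1.35, edgeR adjusted p 0.296). Hist2h2be, also named after its values were seen, ranged from 11.9 through 13.4 to 19.2 CPM in lymphoma and had 16.03, 25.6 and 21.01 CPM in CD4 (log2 fold change -0.55, SE 0.244, edgeR adjusted p 0.0833).

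Of the 12 H3 genes, 9 were tested, and 3 rose (33.3%, against 24.7% over all tested genes) and 0 fell by edgeR. Falls also numbered 0 at an unadjusted p under 0.05, with DESeq2 and with limma voom. Only 2 of the 9 had all 3 CD4 libraries over the filter's minimum, and 0 of those 2 rose. Hist1h3b had no count in CD4 and 149 in lymphoma, at least 5.86-fold higher against the floor (edgeR adjusted p 0.00263). Hist1h3h had 0, 5 and 0 counts in CD4 and 15 to 40 in the lymphomas (log2 fold change 3.48, SE 1.14, edgeR adjusted p 0.0249). Its call was lost without CD4 1 (adjusted p 0.0629) and without CD4 3 (0.0706), and without CD4 2, which holds all its control counts, the fitted value was 7.86. Hist1h3c, the H3 gene with the highest mean, ranged from 1.67 through 2.93 to 10.04 CPM in lymphoma and had 1.72, 0.120 and 0.550 CPM in CD4. Lymphoma 53 was far above the other lymphomas, which began inside the range of the controls. The log2 fold change of Hist1h3c was 2.27 (SE 0.874, edgeR adjusted p 0.0503), just over the threshold and so not called, while 6 of 17 alternatives brought it under.

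All 13 H4 genes were tested, with 3 rises (23.1%, near the 24.7% over all tested genes) and 1 fall. Hist1h4i (ENSMUSG00000060639, a single exon at chr13:22040636-22041362, minus strand) ranged from 32.5 through 40.3 to 67.3 CPM in lymphoma and had 8.59, 7.32 and 4.50 CPM in CD4. The groups were well apart, with lymphoma 53 the highest. Hist1h4i rose by 2.68 on the log2 scale (SE 0.308, edgeR adjusted p 3.11e-05), or 6.42-fold. Hist1h4j had no count in CD4 and 119 in lymphoma, at least 4.64-fold higher. Hist2h4 (ENSMUSG00000091405, a single exon at chr3:96261682-96263311, minus strand) was the replication-dependent gene whose lymphoma libraries all lay below the controls. It ranged from 1.05 through 2.57 to 7.31 CPM in lymphoma, against 9.54, 10.3 and 9.54 CPM in CD4. Its log2 fold change was -1.65 (SE 0.521, edgeR adjusted p 0.0212), and the call was lost without CD4 2 (adjusted p 0.0635) and without CD4 3 (0.0547). Over all members, every lymphoma lay above every control at 22 replication-dependent and 4 replacement variant genes and below at 1 and 0, where the shares over all tested genes are 22.6% above and 22.3% below.

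**Figure D3:**
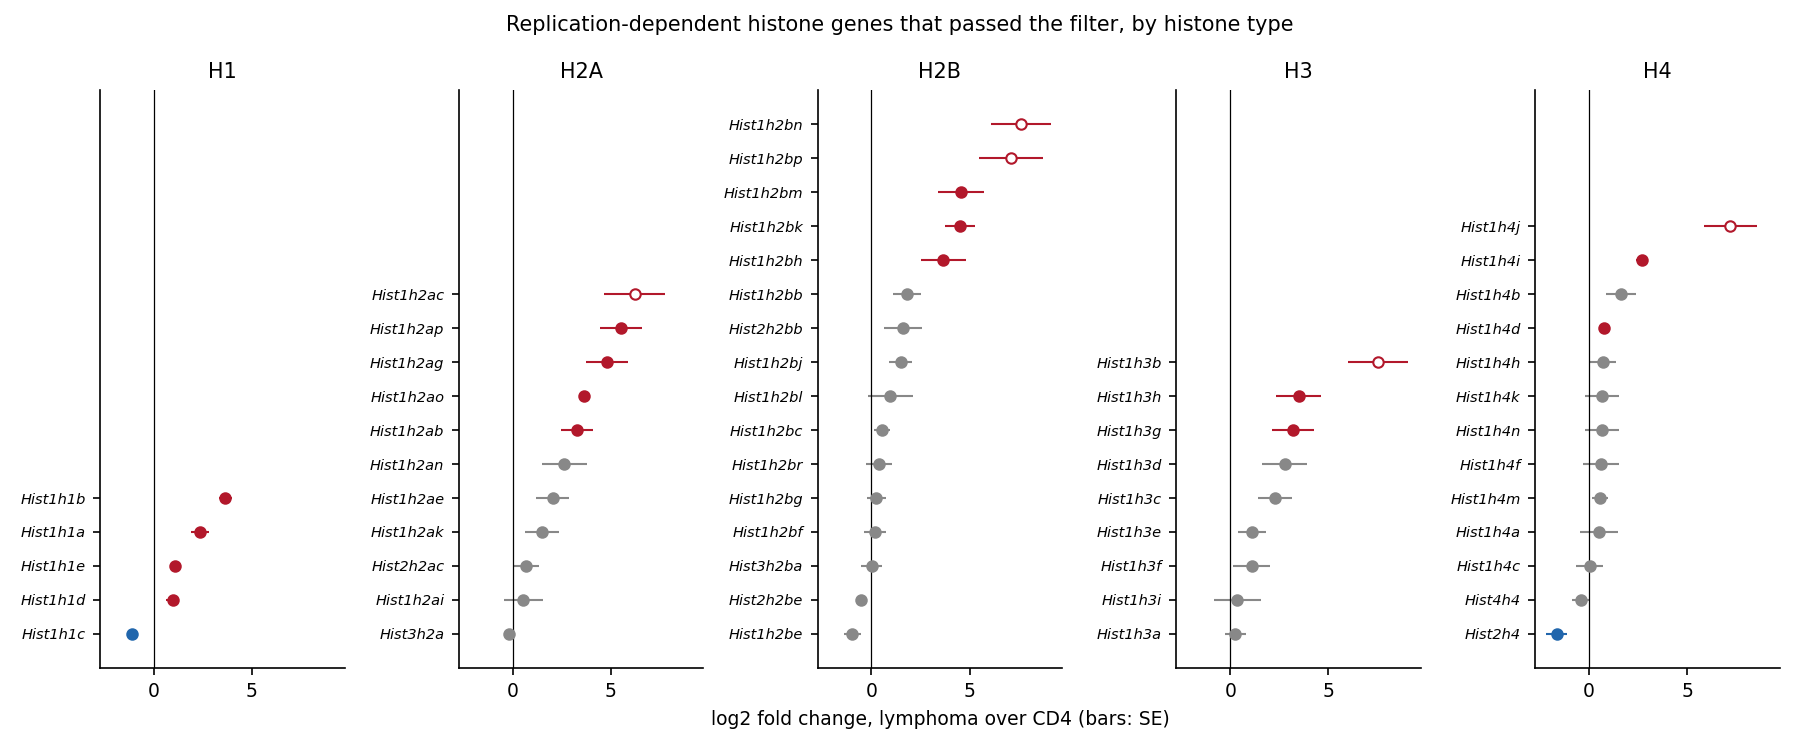
Log2 fold change of lymphoma over CD4 for the 54 tested replication-dependent genes, by histone type. Bars are the standard error, red marks genes called higher, blue genes called lower and grey genes not called, and open circles mark genes with no count in CD4, whose fitted value is not a bound. The 20 rises occur in all 5 types and the 2 falls are Hist1h1c and Hist2h4.

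The fold changes were set beside the annotated length past the stop codon, since a replication-dependent transcript that is polyadenylated runs on beyond the stem-loop. Of the replication-dependent members, 24 have a transcript with 200 or more annotated bases after the stop codon, 41 have fewer and 5 have no annotated stop codon. In the long group 20 were tested, 6 rose and 2 fell, and the median log2 fold change was 0.47. In the short group 31 were tested, 12 rose and 0 fell, and the median was 1.80. The short group was also more thinly covered: the median over genes of the mean level was 2.22 CPM against 5.02 CPM in the long group, and only 7 of its 31 tested members had all 3 CD4 libraries over the filter's minimum, against 15 of 20. Among those, the medians were 0.68 and 0.04. No test was made between the groups of genes. The falls Hist1h1c and Hist2h4 and the genes without a call Hist3h2a and Hist2h2be all have long annotated ends, of 880, 1311, 1700 and 2192 bases, but so has Hist1h1e, which rose, with 1209. Some transcripts, that of Hist1h1b among them, are annotated only to the stop codon, so a short length can be a limit of the annotation.

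**Figure D4:**
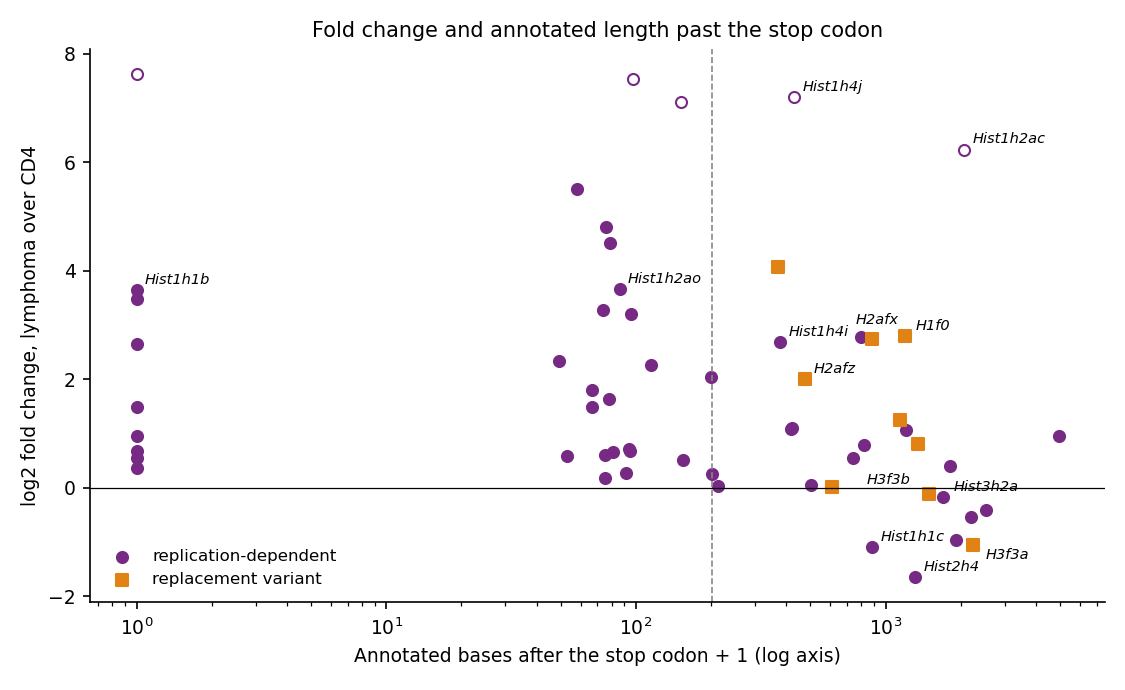
Log2 fold change of lymphoma over CD4 against the annotated bases after the stop codon plus 1, on a log axis, for tested members with an annotated stop codon. Purple circles are replication-dependent genes, open where CD4 had no count, orange squares are replacement variants, and the dashed line is at 200 bases. Values below 0 occur only to the right of the line. Of the 31 replication-dependent genes to its left, only 7 had all 3 CD4 libraries over the filter's minimum. The others passed the filter with the help of lymphoma libraries, which leaves little room for values below 0.

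H2A and H2B genes are often paired head to head. There were 12 such pairs, all of 1 H2A and 1 H2B gene, with 175 to 305 annotated bases between their ends. In 8 pairs both genes were tested, and in 0 of them were both called higher by edgeR, against 2 with DESeq2, 1 with limma voom and 2 at an unadjusted p under 0.05. By edgeR, in 5 of the 8 exactly 1 gene rose, the H2A gene in 3 and the H2B gene in 2. Both log2 fold changes were positive in 7 of the 8. The tested replication-dependent members as a class had a median of 1.09, and 37.0% of them rose, against 24.7% over all tested genes. Members low in CD4 also passed the filter with the help of lymphoma libraries. The pair counts are therefore no measure of whether paired genes move together. The promoter stretch shown above for Hist1h2ao, at 3.66, overlaps the 5′ end of its partner Hist1h2bq, which had at most 2 counts in any library and was not tested. Hist1h2ap rose by 5.51 while its partner Hist1h2br was at 0.40 (edgeR adjusted p 0.653), and Hist1h2ac was called beside Hist1h2bc, which was not. That 1 gene of a pair passed and the other did not is no test of a difference between them.

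Summed over all 70 members, the replication-dependent genes came to 641 ± 37.9 CPM across the 6 lymphomas and to 349.7 ± 65.2 CPM across the 3 controls (mean ± SD). Single lymphomas ranged from 593.9 to 709 CPM and the controls stood at 289, 342 and 418 CPM, so the groups did not overlap, and the mean was 1.83-fold higher. The 18 replacement variants gave 1744 ± 166 CPM in lymphoma and 1103 ± 238 CPM in CD4, or 1.58-fold. Lymphomas ranged from 1529 to 2022 CPM, and the controls stood at 997, 935 and 1375 CPM, with CD4 3 raised by H3f3b. By histone type, the replication-dependent sums were 3.48-fold higher for H2A, 2.79-fold for H3, 1.98-fold for H4, 1.51-fold for H1 and 1.32-fold for H2B. Hist1h2ao alone held 116 of the 167 CPM of H2A in lymphoma and 9.22 of the 48.0 CPM in CD4. Hist1h4i held 43.7 of the 88.0 CPM of H4 in lymphoma and 6.80 of the 44.35 CPM in CD4. The H3 mean in lymphoma, 20.9 CPM, includes 47.8 CPM in lymphoma 53, against 12.2 to 20.6 CPM in the others. For H1 the groups nearly met, at 253 CPM in lymphoma 70 and 248 CPM in CD4 3, and for H2B they overlapped. As a share of gene counts, replication-dependent genes took 0.0636% ± 0.00598 in lymphoma and 0.0356% ± 0.00645 in CD4. The sums are dominated by a few genes, with Hist1h1e at 24.0% and Hist1h2ao at 18.1% of the replication-dependent CPM in lymphoma, and are given without a test.

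**Figure D5:**
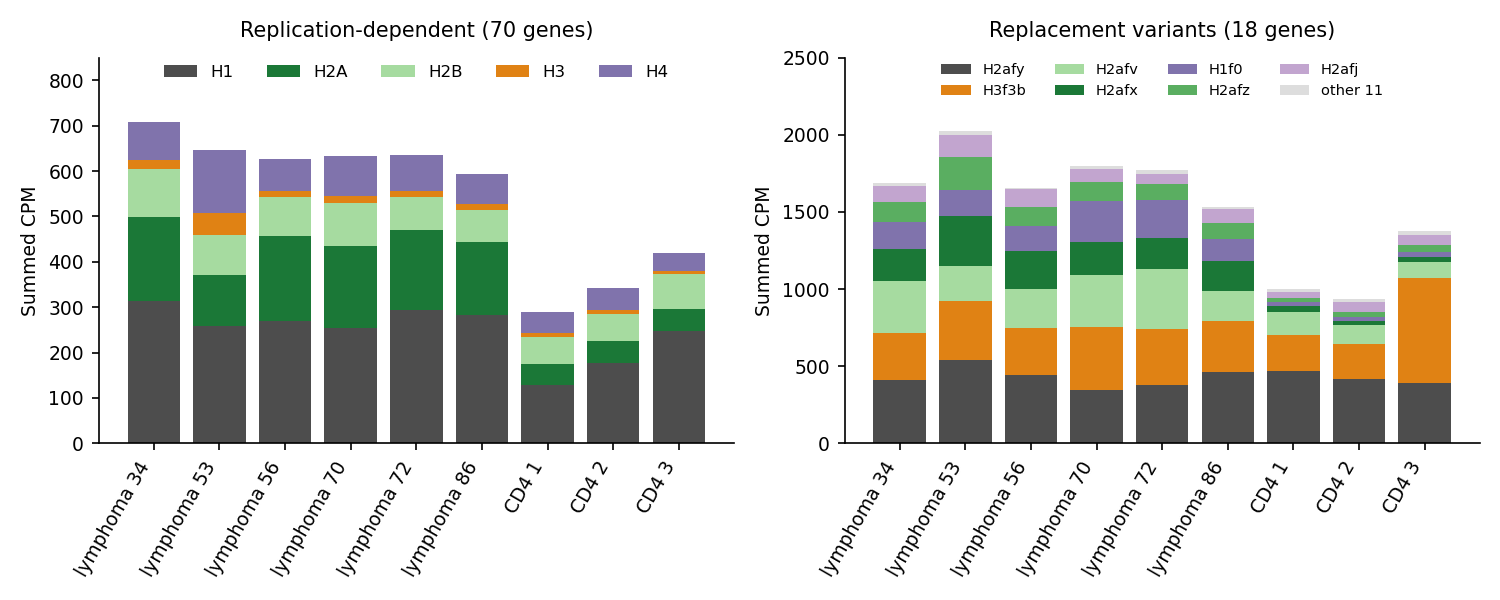
Summed CPM of the 70 replication-dependent genes by histone type (left) and of the 18 replacement variants by gene (right), 1 stacked bar per library. All 6 lymphomas exceed the 3 CD4 libraries in both sums, the H2A block is taller in every lymphoma, and H3f3b makes up much of the bar of CD4 3.

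The genes that make and process histone mRNA were examined next. Of 33 tested, 16 rose (48.5%) and 2 fell, with a median log2 fold change of 0.59. The shares over all tested genes are 24.7% higher and 21.9% lower. The cyclins Ccne1 and Ccne2, which with Cdk2 switch on histone transcription through the factor NPAT at the start of S phase, rose by 2.73 and 2.30, Cdk2 by 1.57 and Npat by 0.79 (edgeR adjusted p 0.000331, 0.000437, 2.24e-05 and 0.0178). The call of Npat was lost without CD4 1 (adjusted p 0.0701) and without CD4 3 (0.0798). Slbp itself stood at 0.82 with an adjusted p of 0.080, and the U7 snRNP proteins Lsm10 and Lsm11 at 0.56 and 0.29 (0.117 and 0.217). Eri1, an exonuclease that trims the stem-loop, rose by 1.18. The 2 falls were Zcchc11 and Zcchc6, the uridylyltransferases TUT4 and TUT7, which add uridines to RNA ends, at -3.79 and -0.93 (edgeR adjusted p 0.0151 and 0.00471), and Zcchc11 stood at -5.19 without lymphoma 53. Genes beyond those at the ends of the list, such as Cdk2, Npat and Slbp, are named for their role after their values were seen.

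Histone chaperones and deposition factors gave 37 tested rows, in which Srcap has 2 gene IDs. Of these, 23 rose (62.2%) and 1 fell, with a median of 1.07. Over all tested genes, 24.7% were higher and 21.9% lower, with a median of 0.04. The largest rises were the subunits of CAF-1 that bring new H3 and H4 to replicated DNA, Chaf1a (3.28) and Chaf1b (3.22), with edgeR adjusted p of 9.00e-05 and 9.26e-06. Nasp, which holds soluble H3 and H4, rose by 1.87 and Asf1b by 2.27. No separate list of H3.3 or H2A.Z factors was fixed, and the genes of this list in the next sentences were grouped after their values were seen. Of those tied to H3.3, Hira rose by 1.23, Asf1a by 0.84 and Dek by 1.31, and Ubn2 fell by 0.71. Ubn1 (0.17), Cabin1 (0.26), Daxx (-0.05) and Atrx (-0.29) did not pass. Of those tied to H2A.Z, Ruvbl1 and Ruvbl2 rose by 2.15 and 1.89, Znhit1 by 0.79 and Anp32e, which removes H2A.Z, by 1.99. Vps72 (0.41), Ep400 (-0.17) and both Srcap rows (-0.58 and -0.16) did not pass. Among 22 S phase genes, 21 rose (95.5%) and 0 fell, with a median of 3.23. They were led by Gins2 (5.60, and 10.23 without CD4 3) and Cdc6 (4.54). The exception was Slbp, which is in both lists. The falls among S phase genes also numbered 0 at an unadjusted p under 0.05, with DESeq2 and with limma voom.

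Other RNAs that normally lack a poly(A) tail give a view of how such RNA was captured in each group. Of 20 listed small and nuclear RNAs, 9 were tested, with 1 rise, Rpph1 (2.34, edgeR adjusted p 0.0148), and 1 fall, Snord118 (-3.03, 0.000599), and a median of -0.31. The call of Rpph1 was lost without CD4 2 (adjusted p 0.0638) and without CD4 3 (0.0603), and with limma voom (adjusted p 0.103). DESeq2 called 1 of the 9 higher and 2 lower, and limma voom 0 and 2. By edgeR, 24.7% of all tested genes were higher and 21.9% lower. The list summed to 18.7 to 34.2 CPM in 5 lymphomas, to 89.9 CPM in lymphoma 53 and to 33.6 to 40.2 CPM in CD4. Lymphoma 53 had the highest level of tailless RNAs. It was the highest of the 6 lymphomas at 28 of the 54 tested replication-dependent genes and 5 of the 10 replacement variants. Lymphoma 56 was the lowest at 16 and 2. How often each library was the extreme one over all tested genes was not counted. Lymphoma 53 was least like the others over all tested genes, so these counts cannot be read as particular to histone genes. The summed replication-dependent level of lymphoma 53, 646.5 CPM, lay within the range of the other lymphomas, with more H4 and H3 (139 and 47.8 CPM, against up to 87.1 and 20.6 CPM in the others) and less H2A (111 CPM, against at least 161 CPM). Whether capture of RNA without a tail differed between libraries was not tested further.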

How the data were processed

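Per the file headers, the deposited table holds raw counts of reads, with Ensembl IDs and symbols in its first columns and 1 column per library. Its 5 summary rows were not treated as genes. Reads in no annotated feature made up 16.6% to 22.5% of all reads in lymphoma and 30.4% to 33.3% in CD4. FastQC, HISAT2, SAMtools and HTSeq and the builds mm10 and GRCm38 are named in the submitters' processing notes, and their versions and the strand setting are not given in the sources used here. The number of columns without a sample was 0.

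Counts were tested with edgeR 4.0.16 (glmQLFit with robust, glmQLFTest) in R 4.3.3, with TMM scaling, filterByExpr at a minimum count of 10 and no covariate, and Benjamini-Hochberg adjustment over 15401 genes. CPM uses TMM-scaled library sizes, and log2 ratios used a prior count of 2. Alternatives used DESeq2 1.42.0 and limma 3.58.1, other scalings, filters and thresholds, each library left out, and lymphomas 34, 70 and 72 averaged, which share a T cell receptor segment. The SE of a log2 fold change was derived from that value and the F statistic of the test. Intervals of log2 fold changes are normal approximations from this SE. They are narrower than the few degrees of freedom of the test would give. Permutation tests and exact intervals used Python 3.11.15 with scipy 1.17.1. The edgeR fit was tested on simulated data.

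The members and lists were chosen with earlier results of these data known. Named genes are all tested replacement variants, in each replication-dependent type the 2 largest rises and falls with an adjusted p under 0.05 and the highest mean CPM, and in each list the 2 largest rises and falls, of which the marker genes other than Cd4 are covered by counts and sums only. Others are marked in the text. The pair of H2afy and H2afy2 was left out because H2afy2 did not pass the filter. GENCODE M21 gave positions and transcripts, matched by Ensembl ID for 86 members, and RefSeq the promoters.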

Additional observations from a re-analysis of the deposited data

Results flagged for a closer look

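Among the 6 lymphomas, 32 values of histone genes and ratios were examined for a library whose gap to its nearest neighbour was large against the whole range, by Dixon's 95% critical value. This held for 9, where chance gives about 1.6, and in all 9 the library was lymphoma 53. Lymphoma 53 had 212.6 CPM of H2afz, against 99.6 to 129.2 CPM in the other 5, and 22.7 CPM of H3f3a, against 3.93 to 8.21 CPM. It had 70.7 CPM of Hist1h1c (others 32.2 to 42.9 CPM), 67.3 CPM of Hist1h4i (32.5 to 45.5 CPM), 10.04 CPM of Hist1h3c (1.67 to 4.19 CPM) and 4.75 CPM of Hist1h2bn (0.436 to 1.999 CPM). For Hist1h2ao it was the lowest, at 62.3 CPM, against 113 to 134 CPM in the others. Its log2 ratio of H3f3a to H3f3b was -4.07, against -6.23 to -5.55, and that of H1f0 to H1fx was 9.38, against 3.46 to 5.52. H1fx had 1 count in lymphoma 53, so the size of its ratio there depends on the prior count. The 9 values come from 1 library and are not independent of each other. The same search was not made over all genes, where lymphoma 53 also correlated least with the others (r = 0.903 to 0.918).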

How the results depend on the processing

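No paired analysis was possible because the groups share no replicate numbers. With at least 10 counts in every library, replication-dependent members called higher numbered 6 in place of 20, since fewer genes were tested. The median log2 fold change of the tested replication-dependent members was then 0.17, and it was 1.32 with no filter and 1.63 with limma voom, against 1.09. Under the same filter, that of the replacement variants was 0.96. With an adjusted p under 0.01, 1 replication-dependent member was called lower. With limma voom 1 replacement variant, H3f3a, was called lower. With all reads as denominator, summary rows included, the share of replication-dependent members was 2.55-fold higher in lymphoma in place of 1.79-fold, and that of replacement variants 2.17-fold in place of 1.54-fold. With lymphomas 34, 70 and 72 averaged, 17 replication-dependent and 5 replacement variant members were higher, with medians of 1.06 and 1.10. Leaving out 1 library gave 17 to 21 replication-dependent members called higher and 0 to 2 called lower, the count of 0 being without CD4 3. It gave medians of 1.03 to 1.39 and shares 1.64-fold to 1.97-fold higher. For replacement variants it gave 4 to 7 called higher, 0 to 1 called lower, the 1 being H3f3a without lymphoma 53, and shares 1.44-fold to 1.75-fold higher. For H3f3b it gave log2 fold changes of -0.38 to 0.62, the last without CD4 3, which had 7456 counts against 2436 and 1913 in the other controls. Over all tested genes, 3582 were higher and 3577 lower with RLE scaling, 3414 and 3707 with upper quartile scaling, and 3636 and 3461 with library size alone. Of the named genes, 2 changed sign in some alternative, H3f3b (0.07 with limma voom) and H2afy, which stayed between -0.10 and 0.12. The cause of these shifts was not tested beyond what each setting changes by its construction.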

Other observations

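Of the 4 histone pseudogene rows that the rule left out, Hist3h2bb-ps had 11, 15, 12, 2, 3 and 7 counts in lymphomas 34, 53, 56, 70, 72 and 86 and 0 in each CD4 library. H3f3a-ps2 had 1 count in lymphoma 56 and 2 in CD4 2, and the other 2 rows had none.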
